A study of Mus musculus with 36 samples.

Results

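Transcription factors of the amino acid response and their target genes were followed in liver, white fat (called WAT) and brown fat (called BAT) of mice given a casein-like amino acid mixture (CAAM) or water. The 8 genes were Atf4, Atf5, Ddit3, Cebpb, Nupr1, Trib3, Asns and Chac1. They were found as the probe sets that the platform annotation assigns to exactly 1 of these symbols, which gave 15 probe sets of the 45101 on the array. Atf4 had 3 probe sets, Ddit3, Cebpb, Nupr1, Trib3 and Asns had a pair each, and Atf5 and Chac1 had 1 each. Unless another probe set is named, values are those of the probe set of each gene with the highest mean over all 36 arrays.

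The mice were 12 males of the outbred ddY stock, 5 weeks old when purchased and acclimated for 1 week. They received by feeding tube 37.5 µL per g of body weight once a day, 5 times, of either a 1.8% solution of CAAM (5 mice, numbers 2, 4, 5, 6 and 7) or water (DW, 7 mice, numbers 1 to 7). All were killed 4 h after the last dose, with the food taken away on the morning of that day, in both groups. Each mouse gave 1 array of each tissue. The study left 2 further CAAM mice out because of abnormal liver morphology, and no exclusion of water mice is named. Arrays of mice given the second mixture of the study are not analysed here. The label WAT does not name the fat depot.

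When an amino acid runs short, uncharged transfer RNA activates the kinase GCN2, which phosphorylates the initiation factor eIF2α and lowers protein synthesis in general. The mRNA of ATF4 is then translated more, and ATF4 binds with C/EBP partners to composite sites in genes of amino acid synthesis, uptake and stress signalling. Much of the control of ATF4 itself is therefore translational, which an array of mRNA does not measure. ATF5 and CHOP, the product of Ddit3, are related leucine zipper factors, C/EBPβ is a partner of ATF4, and NUPR1 is a small chromatin-associated cofactor. TRIB3 is a pseudokinase that feeds back on ATF4 and CHOP, ASNS makes asparagine, and CHAC1 degrades glutathione.

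The core of the composite C/EBP-ATF site, TGATGNAA read on both strands, was searched in RefSeq windows of 300 bases around the annotated start of each gene (build GRCm38.p6, 250 bases before the start base and 50 from it on). All 8 genes had a window, and Atf5 had a pair. The letters were found in 4 of the 8 genes, and in 3.97% of all 32851 windows of that length. The 4 windows are shown because they belong to the members with the core. Each is printed for its first 280 bases, 5′ to 3′ in the direction of the gene, with the matching letters in capitals.
Asns (chr6:7693180-7693459, minus strand): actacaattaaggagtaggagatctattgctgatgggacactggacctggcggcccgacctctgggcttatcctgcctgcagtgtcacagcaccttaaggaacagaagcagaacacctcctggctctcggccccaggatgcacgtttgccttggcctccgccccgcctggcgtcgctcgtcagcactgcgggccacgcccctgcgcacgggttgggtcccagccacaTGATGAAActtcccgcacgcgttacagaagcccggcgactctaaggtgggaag
Trib3 (chr2:152344031-152344310, minus strand): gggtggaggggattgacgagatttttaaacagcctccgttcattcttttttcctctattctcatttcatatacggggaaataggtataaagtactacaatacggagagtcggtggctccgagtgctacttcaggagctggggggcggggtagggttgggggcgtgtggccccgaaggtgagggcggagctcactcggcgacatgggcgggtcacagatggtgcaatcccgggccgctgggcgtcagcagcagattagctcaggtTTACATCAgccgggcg
Nupr1 (chr7:126625441-126625720, minus strand): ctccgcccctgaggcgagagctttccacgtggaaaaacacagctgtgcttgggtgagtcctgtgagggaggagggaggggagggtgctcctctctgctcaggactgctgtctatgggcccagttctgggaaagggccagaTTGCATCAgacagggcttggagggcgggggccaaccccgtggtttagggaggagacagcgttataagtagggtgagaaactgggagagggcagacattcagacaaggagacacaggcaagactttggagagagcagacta
Chac1 (chr2:119350992-119351271, plus strand): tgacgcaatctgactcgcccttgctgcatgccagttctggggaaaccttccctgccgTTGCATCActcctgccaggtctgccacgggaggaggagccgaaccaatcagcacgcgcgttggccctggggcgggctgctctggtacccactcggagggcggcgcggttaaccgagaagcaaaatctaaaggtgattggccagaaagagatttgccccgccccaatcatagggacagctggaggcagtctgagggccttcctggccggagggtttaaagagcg
With the start base counted as 0, the match began at −23 in Asns, on the printed strand, and on the opposite strand at −110 in Nupr1, at −193 in Chac1 and at 14 in Trib3, inside the transcribed part. The windows of Atf4, Atf5, Ddit3 and Cebpb did not hold these letters. These genes lie on chr15:80255184-80257545 (Atf4), chr7:44812256-44816658 (Atf5), chr10:127290793-127296291 (Ddit3) and chr2:167688915-167690432 (Cebpb) of the same build. Of the 29 other genes of the pathway list with a window, 4 held them, namely Atf3, Fgf21, Jdp2 and Slc7a11.

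The deposited values are scores of the distribution free weighted (DFW) method. Their level lies on a log2-like scale, but the deviations between arrays of a tissue are shrunk by a factor that differs between probe sets, with a median SD between arrays of 1.08e-05 score units in liver. A difference in score between CAAM and water mice is therefore not a log2 fold change. Values of single mice are given as the deviation from the mean of the 7 water mice of that tissue, divided by the SD within groups (SD units), and the difference between the group means in the same units is called the standardised difference. Where an array is left out, the difference is divided by the SD of the arrays left unless another SD is named. Other scalings of the arrays shifted most probe sets of a tissue together, since the array medians of the liver, for example, spanned 0.000345 units. The mean after CAAM was higher for 44.5%, 51.1% and 49.2% of all probe sets in liver, WAT and BAT as deposited, for 20.4%, 67.6% and 96.7% after quantile normalization within a tissue and for 4.35%, 96.6% and 98.5% after centring each array on its median. The sign of a member under these scalings is therefore not read as a property of that gene. The defining markers of each tissue were highest in the arrays with its label. In water mice Alb, albumin, stood at 15 in liver against 6.98 and 6.54 in WAT and BAT. Lep, the leptin gene, stood at 11.3 in WAT against 6.43 and 7.34 in liver and BAT. Ucp1, whose product uncouples mitochondria in brown fat, stood at 14.2 in BAT against 6.27 and 6.44 in liver and WAT. Some fat arrays also carried RNA of neighbouring tissue. The mean score of 7 epididymis markers was 12.7, 11.5 and 9.80 on the WAT arrays of water mice 1 and 2 and CAAM mouse 6. On the other WAT arrays it was 7.32 to 7.88 in water mice and 7.39 in CAAM mouse 7. In CAAM mice 2, 4 and 5 it was 6.40 to 6.48, below every water mouse. The mean score of 6 skeletal muscle markers was 11.6, 10.6 and 9.05 on the BAT arrays of water mice 1, 3 and 7 and 11.1 on that of CAAM mouse 2, against 6.61 to 7.42 on the others.

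The score level of some members differed between the 3 tissues. Asns, asparagine synthetase, scored 10.0 in WAT and 10.0 in BAT but 6.94 in liver, close to the middle of all liver probe sets (56th percentile). Nupr1 was at 10.4 in WAT, 8.996 in BAT and 6.66 in liver, where it lay below the median probe set. Cebpb was highest in BAT (11.97), followed by liver (10.9) and WAT (10.3). These 3 genes accounted for every difference of 1 score unit or more among the 8 members in water mice.

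The remaining members lay closer together. Atf4 scored 10.2 in liver, 10.1 in WAT and 9.76 in BAT, and Atf5 scored 9.94, 9.53 and 9.54 in the same order. Ddit3 scored lowest in liver (7.68) and higher in WAT (8.21) and BAT (8.39). Chac1 scored 7.70 in liver and 7.62 in WAT and 6.94 in BAT, and Trib3 lay between 7.43 and 7.56 in all 3 tissues. By this measure 2 of the 8 members differed by 1 unit or more between liver and WAT (background 12.3% of all probe sets), 3 between liver and BAT (background 9.62%) and 2 between BAT and WAT (background 6.69%). The spread between mice within a tissue is shrunk by the method to a few thousandths of a unit or less and gives no usable error for these levels, and the medians of the arrays (6.81 in liver, 6.91 to 6.92 in WAT and 6.78 in BAT) are those of tissues that appear to have been quantified apart, so the levels are a description without a test. BAT exceeded WAT by 0.00313 units for Asns and 0.0101 for Atf5, and by 0.257 and 0.307 after quantile normalization of all arrays.

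**Figure D1:**
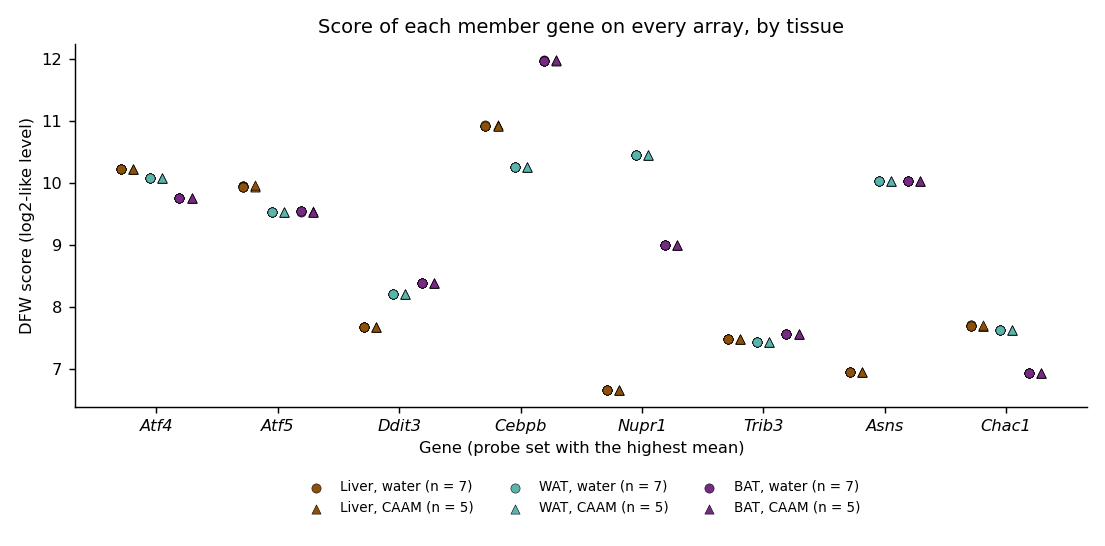
DFW score (log2-like level, vertical axis) of the 8 member genes on each of the 36 arrays, with circles for the 7 water mice and triangles for the 5 CAAM mice of each tissue. The points of a tissue lie on each other because the method shrinks deviations between arrays, and Asns and Nupr1 stand lowest in liver.

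The order of the tissues was the same by the other probe sets of Cebpb, Ddit3 and Nupr1, and differed by those of Asns, Trib3 and Atf4. Asns by its other probe set scored 5.94 in liver, 9.78 in WAT and 8.93 in BAT, so that the fat tissues differed by −0.85 there. Trib3 by 1456225_x_at scored 6.95 in BAT against 7.36 in liver and 7.52 in WAT. Atf4 by 1438992_x_at scored 8.80 in liver, 9.18 in WAT and 7.998 in BAT, a difference of −1.18 between BAT and WAT. The remaining Atf4 probe set, 1439258_at, was dim in all 3 tissues, at 6.48, 6.21 and 6.71. In bulk tissue fewer cells of a type and less RNA per cell cannot be told apart, and this holds for each level and difference given here.

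In the liver, Cebpb and Atf5 were higher in CAAM-treated mice by rank products, the test of the authors. A higher mean score was seen in 7 of the 8 genes, against 44.5% of all probe sets. The number was 5 after quantile normalization and 4 after centring, where 20.4% and 4.35% of all probe sets had a higher mean. Rank products called 3 of the 15 member probe sets higher, both of Cebpb and that of Atf5, and none lower. The background was 1.62% of all 45037 probe sets called higher and 1.18% called lower. These shares are not matched for the SD within groups, on which the calls depend, as described below. The median standardised difference of the 8 genes was 0.65, against −0.09 over all probe sets tested. The 3 calls were also made after quantile normalization. Centring shifts all probe sets of a pair of arrays alike and cannot change their ranks, so it is no check of these calls. limma called no probe set of the array in liver (0 of 45037 at an adjusted p under 0.05, 6.77% at an unadjusted p under 0.05, 1 of the 15 member probe sets among the latter). A single limma fit of all 36 arrays, which shares 1 estimate of the spread between the tissues, called 399 probe sets in liver, 343 in WAT and 163 in BAT, no member among them. For no member probe set were the CAAM and water groups apart without overlap, against 0.442% of all probe sets.

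Atf5 in the liver lay between −1.44 and 1.04 SD units in water mice, with a median of −0.04, and at 1.33, 0.31, 1.36, −0.03 and 2.45 in CAAM mice 2, 4, 5, 6 and 7. All 5 CAAM mice were above the water median and 3 of them above the highest water mouse. The score was 9.94 ± 0.00719 (SD, n = 7) in water mice and 0.00769 ± 0.00402 (SE) higher in CAAM mice, a standardised difference of 1.08 ± 0.57 (limma adjusted p = 0.767, exact permutation p = 0.107).

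Cebpb lay between −1.13 and 2.21 in water mice (median −0.25) and at 0.48, 1.34, 1.05, 2.28 and 0.16 in CAAM mice 2, 4, 5, 6 and 7. The CAAM mice were all above the water median, and water mouse 6 was nearly as high as the highest of them. The standardised difference was 1.06 ± 0.57 (limma adjusted p = 0.770), and that of the other probe set, 1427844_a_at, was 1.17 (limma adjusted p = 0.749). With 1 mouse left out the former ranged from 0.79 to 2.06 and the latter from 0.89 to 2.21, both highest without water mouse 6. The calls of Atf5 and of both Cebpb probe sets were kept without any 1 of the 12 mice.

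The score of Atf4 itself was not called in the liver. Its probe set lay between −0.49 and 0.64 in water mice (median −0.13) and at 0.11, −0.01, 1.34, −0.72 and 3.03 in CAAM mice, which gave a standardised difference of 0.75 ± 0.57 (limma adjusted p = 0.851). CAAM mouse 7 stood far above the rest, and with 1 mouse left out the standardised difference ranged from 0.29 to 1.24. The dim probe set 1439258_at went the other way, with a standardised difference of −1.42 and none of the CAAM mice above the water median (limma adjusted p = 0.720, exact permutation p = 0.0442), and the value was −0.073 after quantile normalization, where the median of all probe sets was −0.49.

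Nupr1, the cofactor, ranged from −0.64 to 1.29 in water mice (median −0.35) and was at 0.60, −0.14, 1.34, 0.03 and 3.07 in CAAM mice. Here too CAAM mouse 7 was the highest, and the standardised difference of 0.98 ± 0.57 was not called (limma adjusted p = 0.788). Trib3 stood at −0.14, 1.39, −1.02, 0.35 and 2.21 in CAAM mice, against −0.66 to 1.5 (median −0.29) in water mice. The enzyme gene Asns stood at −0.55, −0.63, 1.98, 0.17 and 1.15, against −0.71 to 1.79 (median −0.40). The groups of both genes overlapped over most of their range, and the standardised differences were 0.56 and 0.43. Ddit3 and Chac1 had standardised differences of 0.05 and −0.06.

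The liver values differed between CAAM mice. CAAM mouse 7 was the highest of the 12 mice in 5 of the 8 genes, with a mean deviation of 1.88, and CAAM mouse 5 was among the top pair in 4 genes, with a mean of 0.80. The share of all probe sets for which these arrays stood so high was not counted, so the counts are not read as particular to the members. CAAM mice 2, 4 and 6 had mean deviations of 0.05, 0.24 and 0.07, inside the range of water mice (−0.31 to 0.26). In the same livers the mean deviation of 6 macrophage markers was 0.32 to 2.91 in CAAM mice, highest in mouse 5, against −1.18 to 1.19 in water mice, and that of 4 endothelial markers was 1.02 to 2.18 against −1.20 to 1.06. Their part in the liver results was not tested.

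**Figure D2:**
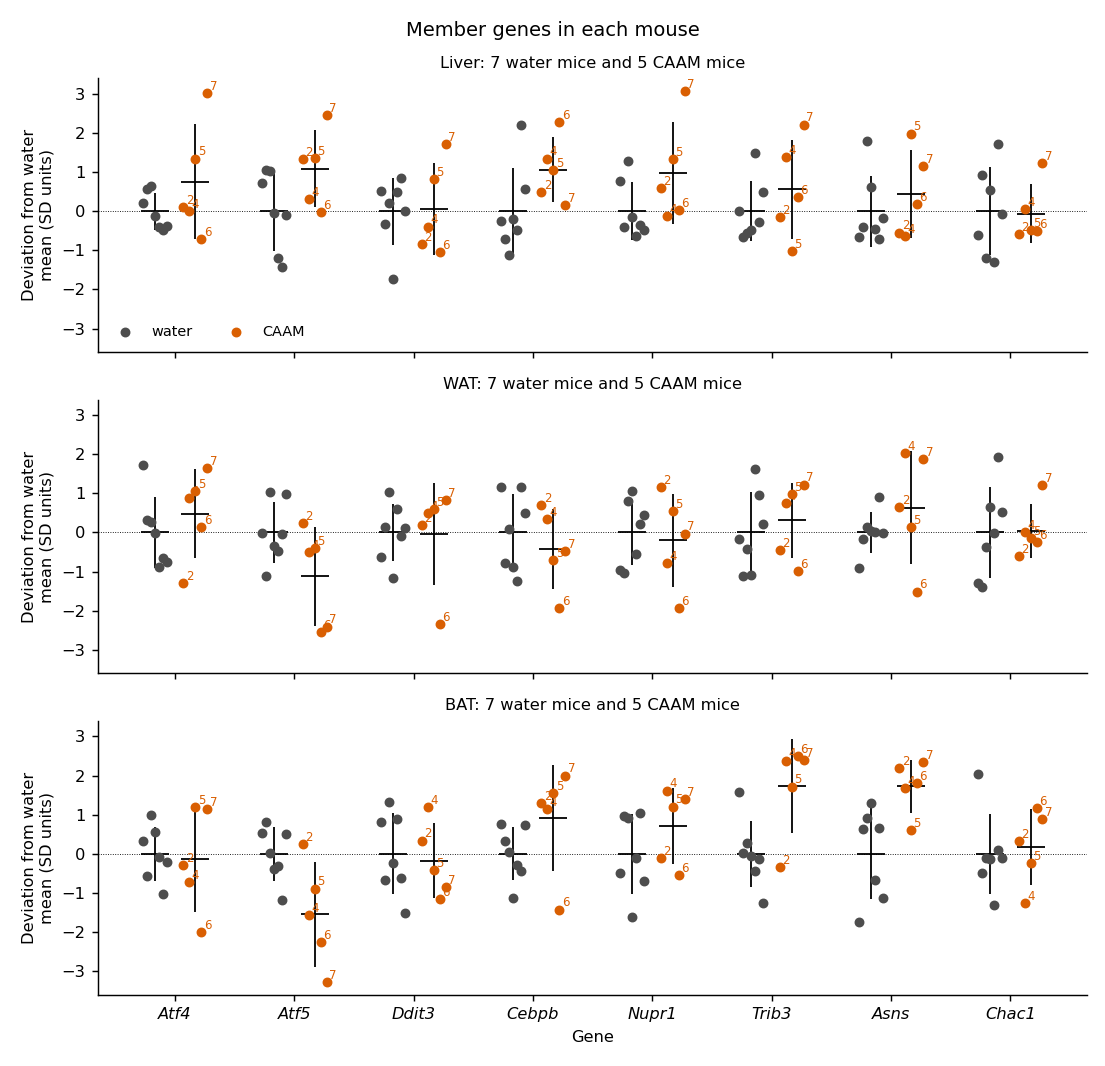
Deviation from the water mean (SD units, vertical axis) of each member gene in each mouse, by tissue, with water mice in grey, CAAM mice in orange and numbered, and horizontal and vertical bars for the mean and SD of a group. CAAM mouse 7 leads 5 genes in the liver, CAAM mouse 6 is lowest for 5 genes in WAT, and Asns and Trib3 stand above and Atf5 below the water mean in BAT.

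In WAT, rank products called none of the 15 member probe sets in either direction. The background there was 0.826% called higher and 1.96% called lower. limma called 0 of 45037 probe sets, with 3.96% at an unadjusted p under 0.05 and no member probe set among them. The groups overlapped for all 15 (background of groups apart 0.222%). The mean score was higher after CAAM in 4 of the 8 genes, against 51.1% of all probe sets. The median standardised difference was 0.00, against 0.01 over all probe sets.

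Asns in WAT was at 0.65, 2.02, 0.14, −1.51 and 1.87 SD units in CAAM mice 2, 4, 5, 6 and 7, against −0.92 to 0.91 in water mice (median 0.01). A pair of CAAM mice lay above every water mouse and another below them all, and the standardised difference was 0.63 ± 0.57 (limma adjusted p = 0.9999). Atf5 was at 0.24, −0.50, −0.40, −2.54 and −2.40, against −1.12 to 1.02 in water mice (median −0.03). CAAM mice 6 and 7 lay below all others, and the standardised difference of −1.12 ± 0.57 was not called (limma p = 0.0771, exact permutation p = 0.0909) and was 0.23 after quantile normalization, where the median of all probe sets was 0.048. The standardised differences of Atf4 and Trib3 were 0.48 and 0.31, those of Cebpb and Nupr1 were −0.41 and −0.20, and those of Ddit3 and Chac1 were −0.04 and 0.04.

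CAAM mouse 6 was the lowest of the 12 mice in 5 of the 8 genes in WAT, with a mean deviation of −1.41. The share of all probe sets for which it was lowest was not counted, so this is not read as particular to the members. The WAT array of CAAM mouse 6 is one of the 3 with high epididymis markers. Without these 3 arrays, and in the SD units of all 12, the differences were 0.95 for Asns, 0.97 for Atf4, 0.44 for Ddit3, 0.042 for Cebpb and −0.99 for Atf5. Rank products again called none of the 15 probe sets (240 of all 45037 called higher and 450 lower). Among the arrays left, the epididymis markers were still lower in CAAM mice 2, 4 and 5 than in every water mouse. Markers of mesothelium, the cell layer over the fat pad, were also lower in WAT of CAAM mice, with a mean deviation of −2.87 to −0.64 against −1.39 to 1.82 in water mice. Their part in the WAT values was not tested.

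In BAT, Cebpb was higher and Atf5 lower in CAAM-treated mice by rank products, and Asns and Trib3 had the largest standardised differences of the members. Rank products called 3 of the 15 probe sets higher, both of Cebpb and 1456225_x_at of Trib3, and 2 lower, those of Atf5 and 1438992_x_at of Atf4. The background was 1.18% called higher and 2.05% called lower, again not matched for the SD. limma called 0 of 45037 probe sets at an adjusted p under 0.05, with 6.41% at an unadjusted p under 0.05, and 6 of the 15 member probe sets were among the latter. These were both of Asns, both of Trib3, 1427844_a_at of Cebpb and that of Atf5. For none of the 15 were the groups fully apart (background 0.329%).

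Asns in BAT stood at 2.18, 1.68, 0.60, 1.81 and 2.34 SD units in CAAM mice 2, 4, 5, 6 and 7, against −1.74 to 1.30 (median 0.64) in water mice. CAAM mice 2, 4, 6 and 7 lay above every water mouse, and mouse 5 inside their range. The difference in score was 1.06e-05 ± 3.54e-06 (SE), a standardised difference of 1.72 ± 0.57 (limma p = 0.0124, adjusted p = 0.698, exact permutation p = 0.0177). By the other probe set, 1433966_x_at, the CAAM mice stood at 1.10, 1.79, 1.03, 0.78 and 2.63, and the standardised difference was 1.47 (limma adjusted p = 0.729). Rank products did not call either, and after quantile normalization the values were 0.34 and 0.39, below the median of all probe sets of 0.60.

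Trib3 stood at −0.33, 2.38, 1.72, 2.49 and 2.40 in CAAM mice, against −1.25 to 1.57 (median −0.04) in water mice. CAAM mice 4, 5, 6 and 7 lay above every water mouse and CAAM mouse 2 inside their range, as shown in the plot of deviations. The standardised difference was 1.73 ± 0.57 (limma p = 0.0115, adjusted p = 0.691, exact permutation p = 0.0265). The probe set 1456225_x_at gave 0.21, 2.66, 1.61, 3.48 and 3.0 against −1.27 to 1.08 in water mice, with a standardised difference of 2.19 ± 0.57 (limma p = 0.00283, adjusted p = 0.645, exact permutation p = 0.00379). Its rank products call was close to the threshold (share of false positives 0.0465) and was lost without any 1 of 8 of the 12 mice. After quantile normalization the standardised differences of the pair were 0.74 and 1.19, above that median, and the call was not made.

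Cebpb in BAT stood at 1.30, 1.14, 1.56, −1.42 and 2.0 in CAAM mice and between −1.13 and 0.75 (median 0.04) in water mice. CAAM mice 2, 4, 5 and 7 lay above all water mice and mouse 6 below them all. The standardised difference was 0.91 ± 0.57 (limma adjusted p = 0.863), and that of 1427844_a_at was 1.31 (limma adjusted p = 0.769). With 1 mouse left out the former ranged from 0.66 to 2.52 and the latter from 1.06 to 2.86, both highest without CAAM mouse 6. The call of the former was lost without CAAM mouse 2, 4, 5 or 7, and that of the latter was kept without any 1 mouse. After quantile normalization neither was called (0.31 and 1.06), and the call of the former was also lost without dim probe sets and without the arrays with muscle markers described below.

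Atf5 in BAT stood at 0.24, −1.56, −0.89, −2.26 and −3.28 in CAAM mice, against −1.18 to 0.81 (median 0.02) in water mice. CAAM mice 4, 6 and 7 lay below every water mouse. The difference in score was −0.00327 ± 0.0012 (SE), a standardised difference of −1.55 ± 0.57 (limma p = 0.0203, adjusted p = 0.718, exact permutation p = 0.0240), and the rank products call was kept without any 1 mouse.

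Atf4 stood at −0.28, −0.72, 1.20, −1.99 and 1.14 in CAAM mice, on both sides of the water mice (−1.02 to 0.98), and its standardised difference was −0.13. The call of its probe set 1438992_x_at as lower, at a standardised difference of −0.24, lay at a share of false positives of 0.0488 and was lost without any 1 of 10 of the 12 mice. Nupr1 had a standardised difference of 0.72, with CAAM mice 4, 5 and 7 above all water mice at 1.62, 1.21 and 1.40 and mice 2 and 6 at −0.10 and −0.55. Ddit3 and Chac1 had standardised differences of −0.18 and 0.18.

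Without the 4 BAT arrays with high muscle markers (water mice 1, 3 and 7, CAAM mouse 2), a comparison of 4 against 4 mice, the difference in the SD units of all 12 arrays was 2.39 for Trib3 (limma adjusted p = 0.0938), 2.60 for its other probe set (0.585), 1.12 for Asns (0.830), 1.20 for Cebpb (0.893) and −1.73 for Atf5 (0.755). The SD within groups of Trib3 fell from 3.76e-05 to 1.09e-05 score units, so that its difference was 8.29 in units of the latter. For Trib3 the 4 water mice left stood between −0.43 and 0.03 and the 4 CAAM mice between 1.72 and 2.49. This subset was chosen after seeing the data. It leaves out the water mice at both ends of their range (−1.25 to 1.57) and CAAM mouse 2, the lowest CAAM mouse (−0.33). With all 12 mice the groups overlapped. In this subset rank products called 1 member probe set higher, 1427844_a_at of Cebpb, and 1 lower, that of Atf5. Of all 45037 probe sets it called 431 higher and 381 lower there.

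**Figure D3:**
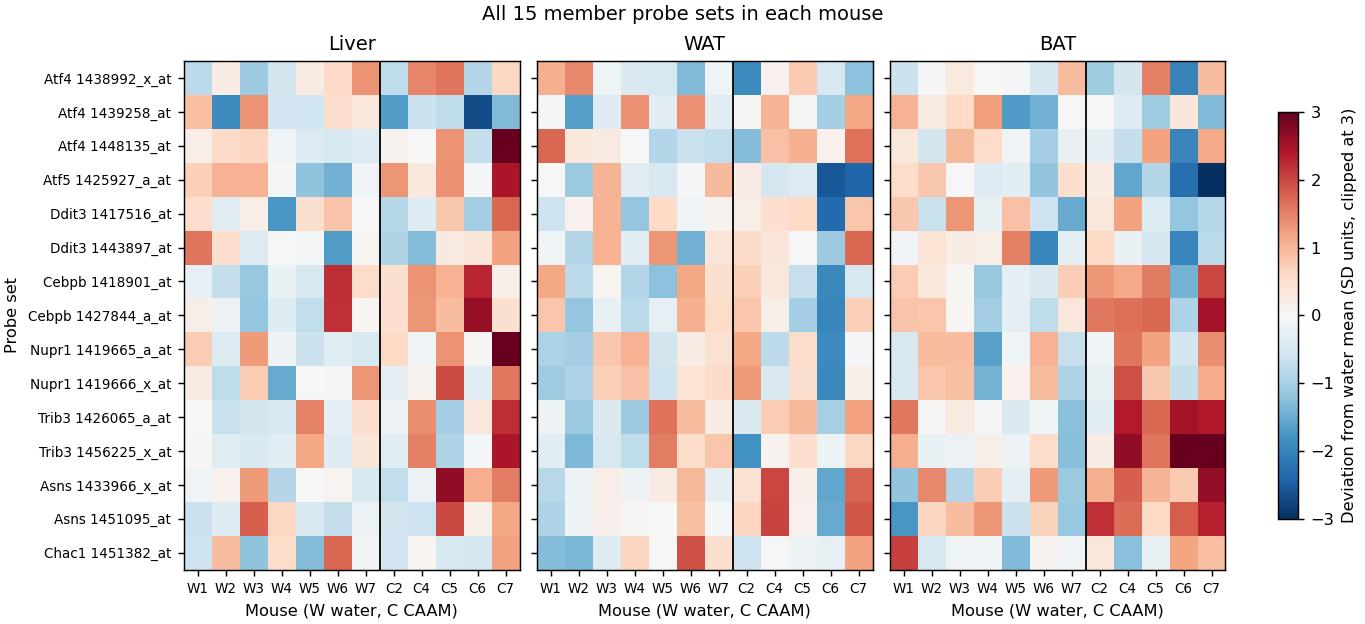
Deviation from the water mean (SD units, colour, clipped at 3) of all 15 member probe sets in the 12 mice of each tissue, with water mice (W) left and CAAM mice (C) right of the line. The probe sets of Cebpb, Trib3, Asns and Nupr1 mostly share their pattern across mice, while the 3 probe sets of Atf4 do not.

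Rank products ranks raw score differences. Of the probe sets it called, 98.6% in the livers, 96.6% in WAT and 97.4% in BAT lay in the 10% of probe sets with the largest SD within groups. Of the 15 member probe sets 10, 3 and 8 lay among these. In that 10% rank products called 1186 probe sets in liver, 1148 in WAT and 1384 in BAT, of 1203, 1188 and 1421 called in all. The background shares of all probe sets are therefore not those of probe sets with such a large SD. A count of members or pathway genes above these shares is not read as a result about the genes. Asns in BAT lay at the 44th percentile of SD and Atf5 and Cebpb in liver at the 99th and 98th. When differences were divided by the SD, rank products called no member probe set in any of the 3 tissues, and none of the pathway genes below.

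The difference between tissues in the response to CAAM was tested directly on the standardised scores. For Atf5 the standardised difference in liver exceeded that in BAT by 2.63 ± 0.83 (SE) and that in WAT by 2.2 ± 0.83 (adjusted p = 0.591 and 0.597 by limma's linear model over all probe sets). The CAAM mice were above the water median in 5 of 5 livers and in 1 of 5 samples of each fat. For 1456225_x_at of Trib3 the value in BAT exceeded that in WAT by 2.34 ± 0.83 (adjusted p = 0.769 by limma's linear model). With the differences between tissues taken within each mouse, these adjusted p were 0.443, 0.557 and 0.450. No member passed the adjustment in any pair of tissues, where the model called 0 probe sets between liver and WAT, 0 between liver and BAT and 1 between BAT and WAT (0.00222%), and 7.32%, 6.38% and 5.64% at an unadjusted p under 0.05. For Asns the liver minus BAT value was −1.30 ± 0.83 (adjusted p = 0.861 by limma's linear model).

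Of 38 other genes of the pathway, 35 were measured, each by the probe set with the highest mean. The list holds the kinases and regulators upstream of eIF2α, phosphatase subunits, partner factors, enzymes of serine, one-carbon and proline synthesis, amino acid transporters, genes of growth and autophagy, and secreted proteins. In the liver, 23 of 35 had a higher mean after CAAM (median standardised difference 0.36), in WAT 20 (0.24) and in BAT 21 (0.19). These are 65.7%, 57.1% and 60% of the genes, against 44.5%, 51.1% and 49.2% of all probe sets. Rank products called 4 higher and 1 lower in liver, 5 higher and 2 lower in WAT and 2 higher and 0 lower in BAT (backgrounds 1.62% and 1.18%, 0.826% and 1.96%, 1.18% and 2.05%). limma called none, and by limma 5, 0 and 4 genes had an unadjusted p under 0.05 (background 6.77%, 3.96% and 6.41%).

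A pair of pathway genes was called higher in each tissue. The tissues are of the same mice, and the share of all probe sets called higher in all 3 was not counted. Cebpd, a C/EBP factor, had standardised differences of 1.5, 0.26 and 1.38 in liver, WAT and BAT. In BAT its CAAM mice stood at 1.03, 1.54, 1.10, 1.43 and 1.78 against −0.83 to 2.80 (median −0.39) in water mice, so that the CAAM mice lay together above all water mice but 1. Ddit4, which encodes the mTORC1 inhibitor REDD1, had standardised differences of 0.81, 1.18 and 1.65. In BAT it stood at 0.75, 2.03, 0.78, 2.35 and 2.34 against −1.45 to 1.97 (median −0.35) in water mice. The calls in BAT were kept without any 1 mouse and without the 4 arrays with muscle markers, and the WAT call of Cebpd was lost without any 1 of 9 of the 12 mice. Its standardised difference in WAT was −0.0043 without the arrays with epididymis markers. The liver call of Ddit4 was lost without CAAM mouse 6. 

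Other calls were made in single tissues. None of the 35 genes passed the test of a difference between tissues (lowest adjusted p = 0.619 by limma's linear model, for Shmt2 between liver and WAT). In the liver the transporter gene Slc38a2 was called higher, with CAAM mice at 0.54, 1.53, 0.63, 2.60 and 1.66 against −0.92 to 2.22 (median −0.28) and a standardised difference of 1.39. The hormone gene Fgf21 was called both higher and lower, with CAAM mice 5 and 7 at 1.81 and 3.12 and mice 2, 4 and 6 at −0.37, −0.28 and −0.13, a pair high and the rest within or just under the range of water mice (−0.33 to 0.26). By the lowest limma p, Sqstm1, an autophagy receptor (1.46), Impact, an inhibitor of GCN2 activation (1.36), and Jdp2, a leucine zipper factor (1.33), followed Cebpd and Slc38a2 (limma adjusted p from 0.705 to 0.728).

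In WAT, the serine and one-carbon genes Psph (0.98) and Mthfd2 (0.89) and the transsulfuration gene Cth (0.88) were called higher. CAAM mouse 6 stood at 3.58, 3.65 and 3.38 for these 3 genes, where the highest water mouse was at 0.14, 0.40 and 0.75, and all 3 calls were lost without that mouse. The call of Cth was also lost without CAAM mouse 2 or 5, and that of Psph without CAAM mouse 2. The WAT array of CAAM mouse 6 is one with epididymis markers, whose part in these values was not tested. Of the 8 enzymes of this group 7 had a higher mean, against 51.1% of all probe sets. In the other groups these were 4 of 6 factors, 2 of 2 phosphatase subunits and 2 of 6 genes upstream of eIF2α. They were 2 of 5 transporters, 2 of 5 growth and autophagy genes and 1 of 3 secreted proteins. The call of Mthfd2 and Cth was kept without the 3 arrays with epididymis markers, and that of Psph was not. Slc7a5, a large neutral amino acid transporter (−0.67), and Vegfa, a vascular growth factor (−0.79), were called lower, and neither call was kept without these 3 arrays, where the value of Slc7a5 was −0.096 and that of Vegfa −0.96. Eif2ak2, the kinase PKR (1.17), and Shmt2, a mitochondrial one-carbon enzyme (1.03), had the lowest limma p together with Ddit4 and Psph (limma adjusted p = 0.9999 for each). In BAT the genes with the lowest limma p besides Ddit4 and Cebpd were Cth (1.34) and the phosphatase subunit gene Ppp1r15b (−1.29, limma adjusted p = 0.775).

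**Figure D4:**
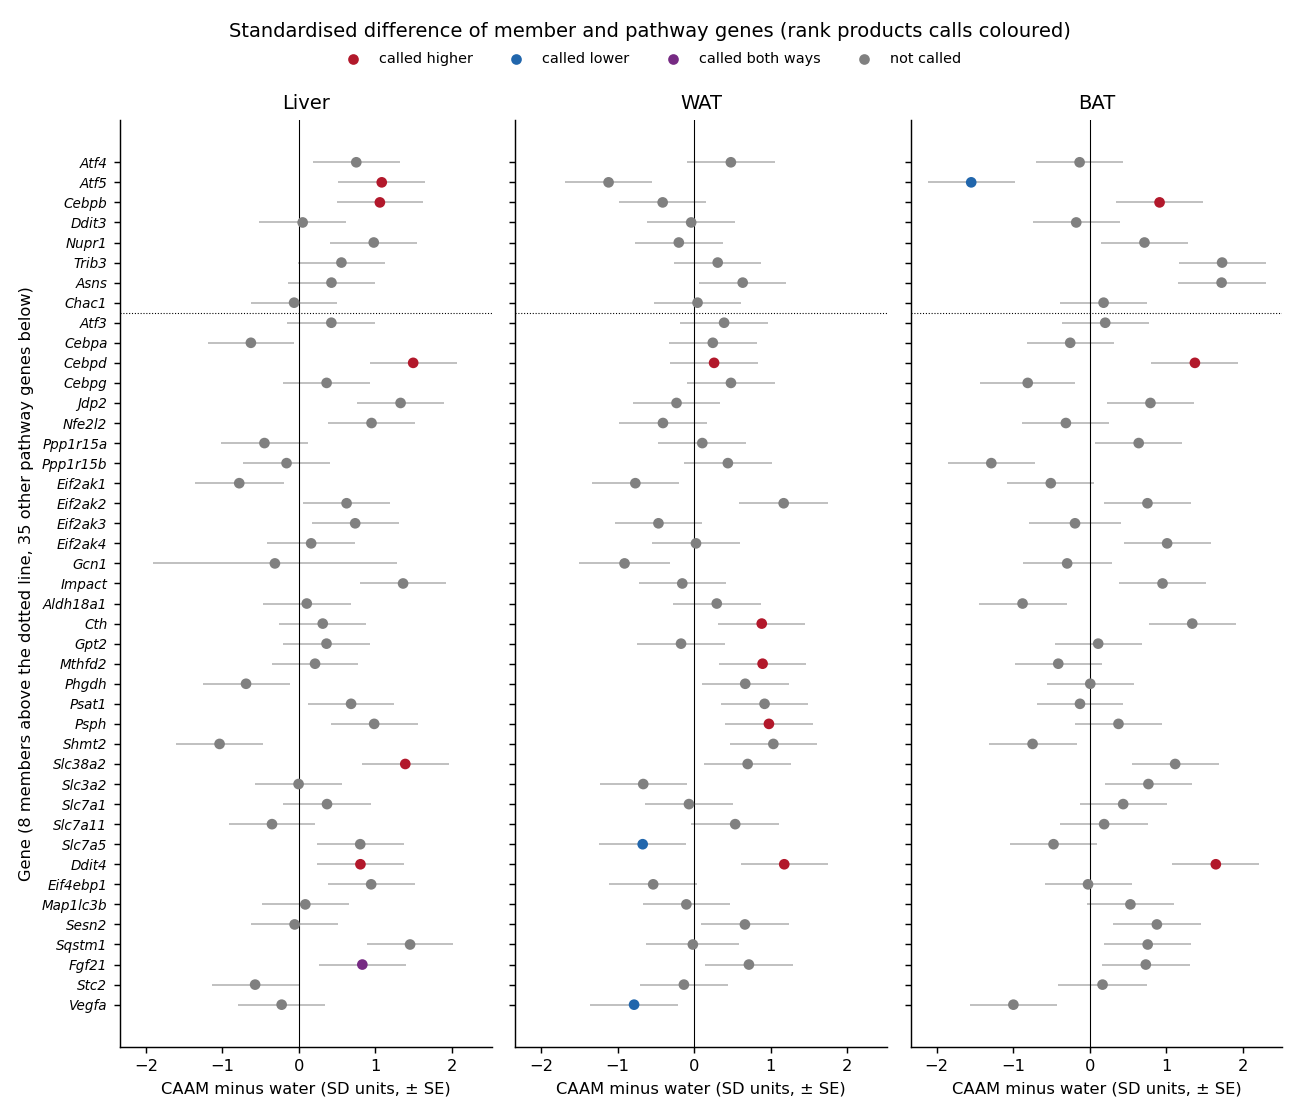
Standardised difference between CAAM and water mice (SD units, horizontal axis, bars ± SE) of the 8 members (above the dotted line) and 35 other pathway genes in each tissue, coloured by the rank products call. Red points are called higher and blue points lower, and Cebpd and Ddit4 are red in all 3 tissues.

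Averaged over the tissues, the members followed each other loosely across mice. Likeness was measured as the mean over the 3 tissues of the Spearman correlation over the 12 arrays of a tissue, which share their mice and their normalization, among 18192 genes. The closest pair among the members was Asns and Nupr1, at 0.40, and no member was among the 3 genes most like another member. Within single tissues the values went apart, as for Atf4 and Atf5 (0.88 in liver, −0.33 in WAT and 0.049 in BAT). Atf5 and Nupr1 were at 0.78, 0.66 and −0.40 in the same order. The genes most like Asns were Mmp24 (0.69), Fasl (0.67) and Sva (0.64), and those most like Atf5 were Gpd1 (0.77), Tmem182 (0.74) and Serinc2 (0.73). For Trib3 the closest gene was Dennd5b (0.72), for Nupr1 Pelp1 (0.80), for Atf4 Ipcef1 (0.71), for Cebpb Sec23a (0.69), for Ddit3 Fads2b (0.67) and for Chac1 Abca8a (0.64). With so many genes ranked over 12 mice these values are a description and carry no test.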

How the data were processed

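RNA of 36 tissue samples (liver, WAT and BAT of 7 water and 5 CAAM mice) was measured on Affymetrix Mouse Genome arrays. Per the methods of the study and the submission notes (R 2.7.2), the authors quantified the scanner files by the distribution free weighted method, and the deposited table holds a score for each probe set on each array. Of 45101 probe sets, 64 controls were left out and 45037 tested. The array annotation gives 1 symbol for 34945 of them, several for 932 and none for 9160. Precision is limited by the number of arrays.

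The members, gene lists and marker lists were chosen with earlier results of these data known. Named are all members and their probe sets, pathway genes called by a test or with the 4 lowest limma p values of a tissue, the markers, and the 3 genes most like each member. CAAM was compared with water within each tissue by rank products (35 pairs of arrays, 100 permutations, 20 for alternatives, called where the estimated false positives made up a share under 0.05), written with numpy 2.4.6, scipy 1.17.1 and pandas 2.3.3 in python 3.11.15, and by limma 3.58.1 in R 4.3.3, two-sided, with Benjamini-Hochberg adjustment over all probe sets. Exact permutation p values enumerate all 792 divisions of the 12 mice. Differences between tissues in the response were tested on scores divided by the pooled SD, with unmoderated linear models, because moderation made false calls on simulated data. A test of tissue levels had been planned and was not run, because the scores of the 3 tissues appear to have been set apart: 2331 probe sets differ by 2 units or more between tissues, yet have a median SD of 5.84e-05 within liver. Alternatives were quantile normalization, centring, leaving out dim probe sets, the mouse number as a block, division by the SD, other priors, 1 fit of all arrays and leaving out each mouse. Runs without arrays with epididymis or muscle markers were chosen after seeing the data. The tests were run on simulated data first. Figures were drawn with matplotlib 3.10.9.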

Additional observations from a re-analysis of the deposited data

Results flagged for a closer look

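Of 48 groups of a member gene, a tissue and a treatment, 4 held a mouse far from the others by Dixon's test, where chance flags about 1 in 20 groups. Cebpb in BAT had its lowest value in CAAM mouse 6, with a gap of 0.749 of the range of the 5 mice. Trib3 in BAT had its lowest value in CAAM mouse 2 (gap 0.728), whose BAT array is one of the 4 with high muscle markers. Ddit3 in WAT had its lowest value in CAAM mouse 6 (gap 0.799), whose WAT array is one of the 3 with high epididymis markers. Chac1 in BAT had its highest value in water mouse 1 (gap 0.579 of the range of the 7 mice), whose BAT array also has high muscle markers. The part of these markers in the outlying values was not tested.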

How the results depend on the processing

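Counts over all 45037 probe sets stand in brackets after those of the members. The number of member probe sets called higher by rank products in liver (3, with 730 of all) was 5 with the mouse number as a replicate block (902). It was 0 with differences divided by the SD (93) and 0 by limma. With 1 mouse left out it ranged from 3 to 5 (430 to 759). The number called lower in liver (0, with 531 of all) was 1 with the block (445) and 0 to 1 with 1 mouse left out (386 to 647). In BAT the number called higher (3, with 531 of all) was 0 after quantile normalization (232), with differences divided by the SD (142) or by limma. It was 1 without dim probe sets (310 of 22519) or without the 4 arrays with muscle markers (431). With 1 mouse left out it was 1 to 3 (273 to 629). The number called lower in BAT (2, with 925 of all) was 1 after quantile normalization (311), without dim probe sets (471 of 22519) or without the muscle arrays (381). It was 0 with division by the SD (69) or by limma, and 1 to 2 with 1 mouse left out (656 to 1112). In WAT it was 0 in every alternative run. Centring on array medians put 5 member probe sets past the test of liver against BAT (0 as deposited), with Atf5 at 2.59, where it put 85.4% of all probe sets past that test, nearly all lower in liver. The 1 probe set called between BAT and WAT was no longer called higher with the differences taken within mice, where 1 was called lower. limma called 0 to 1 probe sets in liver and WAT and 0 to 5 in BAT with 1 mouse left out.

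Several members changed sign. Both scalings shifted most probe sets of a tissue one way, so that these signs say nothing of single genes. After quantile normalization and after centring, in this order, the standardised difference was −0.054 and −0.51 for Asns and −0.40 and −1.52 for Ddit3 in liver, 0.23 and 0.11 for Atf5, 0.15 and 0.14 for Cebpb and 0.14 and 0.12 for Nupr1 in WAT, and 0.47 and 0.62 for Atf4, 0.24 and 0.12 for its probe set 1438992_x_at and 0.33 and 0.92 for Ddit3 in BAT. Centring also turned Nupr1 in liver (−0.26) and Ddit3 in WAT (0.15). With the block the value was −0.35 for Chac1 and 0.044 for Ddit3 in WAT and 0.15 for Atf4 and 0.31 for Ddit3 in BAT. Without the epididymis arrays Cebpb was at 0.048, Chac1 at −0.51 and Ddit3 at 0.67 in WAT, and without the muscle arrays Atf4 was at 0.15 and its probe set 1438992_x_at at 0.10 in BAT. With 1 mouse left out the ranges were −0.50 to 0.42 for Atf4, −0.81 to 0.25 for 1438992_x_at, −0.0673 to 0.70 for Chac1 and −0.56 to 0.069 for Ddit3 in BAT, −0.40 to 0.27 for Chac1 and −0.43 to 0.33 for Ddit3 in liver, and −0.26 to 0.46 for Chac1, −0.26 to 0.87 for Ddit3 and −0.59 to 0.27 for Nupr1 in WAT. The cause was not tested. Asns and Trib3 in BAT, Atf5 in liver and BAT and Cebpb in liver and BAT kept their direction in every alternative run. For Asns, Trib3 and Cebpb in BAT this was nearly fixed under both scalings, which put 96.7% and 98.5% of all probe sets higher there. Their kept sign under these scalings says nothing of these genes. Centring could not turn the sign of Atf5 in liver and BAT or of Cebpb in liver either. Their score differences (0.00769 and 0.00161 in liver, −0.00327 for Atf5 in BAT) were larger in size than the span of array medians (0.000345 in liver, 0.00143 in BAT). Water and CAAM mice of the same number are different mice, and their deviations correlated at −0.19 to 0.15. Pairs of different numbers were not computed, so these values cannot tell whether the numbers mark a shared block. The block for tissue levels was not run, since those levels carried no test, and the counts of members differing by 1 unit between tissues (2, 3 and 2) were kept under both scalings, in CAAM mice and with 1 mouse left out.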
